A study of Homo sapiens with 6 samples.

Results

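The 26S proteasome is the protease that removes proteins tagged with ubiquitin, and the genes described here encode its subunits. They are the rows of the deposited count tables whose Ensembl identifiers map to a list of 31 subunit symbols of the 20S core and the 19S regulatory particle. Of these, 30 were found among 57905 identifiers, and all 30 were abundant enough to be tested with 14578 genes in all. PSMB3, a beta ring subunit, was not analysed here. RNA was sequenced from U87, an established human glioma line grown in DMEM with serum, in 3 libraries labelled control (genotype WT, treatment no) and 3 labelled siRBM47. The latter cells received 100 pmol of siRNA, a short duplex that directs degradation of a matching transcript, here of the RNA-binding protein RBM47 (genotype and treatment siRBM47). The protocol text is the same for all libraries and describes lipofection, so whether control cells were transfected is not clear from it. Nothing in the labels ties libraries to independent cultures: a p-value below covers variation among these libraries alone, part of which may be technical. The comparison was designed to ask which transcripts differ when RBM47 is depleted. The level of RBM47 in these libraries is given below.

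The 20S core is a barrel of stacked rings. The outer rings are built from PSMA (alpha) subunits, which form the gate, and the inner rings from PSMB (beta) subunits, of which PSMB5, PSMB6 and PSMB7 carry the proteolytic sites. The 19S particle caps the barrel: PSMC subunits form a ring of ATPases that unfolds substrates, and PSMD subunits bind ubiquitin, remove it and hold the lid together. The subunits work in fixed proportions, and their genes are known to be activated together by the transcription factor NFE2L1 when the protease is impaired. Fast-dividing tumour cells are known for a high demand on this system.

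Total counts ran from 15580000 to 18130000 per library (rounded). RBM47, the targeted gene, was not detectably lower in the libraries labelled siRBM47 (log2 difference -0.11, SE 0.50, adjusted p = 0.942, edgeR). It was at 1.62, 1.73 and 5.75 CPM in the controls, against 3.54, 2.74 and 2.23 in siRBM47 (CPM is the count divided by the TMM-scaled library size in units of 1e6 reads; values are for replicates 1 to 3). These levels rest on few counts, 24, 30 and 108 in the controls and 64, 48 and 40 in siRBM47. As RBM47 was not detectably lower, directions below are between the libraries labelled siRBM47 and control. Control replicate 3 stood apart: its log2 CPM correlated at 0.947 and 0.956 with the other two controls across genes, against 0.992 between these. With siRBM47 replicates 1 to 3 it correlated at 0.962, 0.965 and 0.968, higher than with either other control. Control replicates 1 and 2 correlated at 0.955 to 0.972 with the siRBM47 libraries. Of 10 glioma and astrocyte markers 8 were tested. VIM and CD44 were abundant (at least 2831 and 596 CPM), while the astrocyte-defining GFAP stayed at or below 1.49 CPM, S100B at or below 0.387, and AQP4 had no count. Summed markers of other cell types were low in every library, at most 31.6 CPM for the immune list (nearly all CSF1R; PTPRC at or below 0.0677), 5.03 for the endothelial, 38.5 for the epithelial and 30.5 for the neuronal list.

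The promoters of these genes are described first because the factor known to activate them together binds a short element, which was searched for in them. RefSeq promoter windows (GRCh38.p14, around annotated starts, some of which lie inside the gene's full span) were found for 25 of the 30 genes. The core of the antioxidant response element, TGACNNNGC on either strand, occurred in windows of 6 of the 25 genes (24%), PSMA4, PSMC4, PSMC5, PSMD1, PSMD12 and PSMD3, against 16.1% of 27305 genes with windows of the same length. Before the start it occurred in the 4 stretches below, in each of which the capitals mark the match.
PSMA4 (chr15:78540650-78540678, plus strand): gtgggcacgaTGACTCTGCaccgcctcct
PSMC5 (chr17:63827654-63827682, plus strand, reverse complement match): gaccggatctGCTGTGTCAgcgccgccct
PSMD12 (chr17:67366724-67366752, minus strand): agacaaaaccTGACGCTGCaggctggagt
PSMD3 (chr17:39980760-39980788, plus strand): tcccctttgtTGACTCGGCcatcggcctg
The matches in PSMC4 and PSMD1, and another in PSMD3, lay after the start. Matches are a description of letters and not of binding.

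Other motifs were counted in the same windows, on both strands. The ETS core CCGGAAG was in windows of 10 of the 25 genes (40%, against 12.2% of all genes), CCAAT in 14 (56%, against 39.7%), the GC box GGGCGG in 17 (68%, against 48.3%) and TATAAA in 4 (16%, against 14%). PSMD3 and PSMD12, both subunits of the 19S lid, are shown at greater length, up to the first annotated exon base, because both hold the element before the start and their log2 differences between the groups had opposite signs (given with the 19S subunits). Capitals mark TGACNNNGC, CCGGAAG or CCAAT on either strand.
PSMD3 (chr17:39980557-39980796, plus strand): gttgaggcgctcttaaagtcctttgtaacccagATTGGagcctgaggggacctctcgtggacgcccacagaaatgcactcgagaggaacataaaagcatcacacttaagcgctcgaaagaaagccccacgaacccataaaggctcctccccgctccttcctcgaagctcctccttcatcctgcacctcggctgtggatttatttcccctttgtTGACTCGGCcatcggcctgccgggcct
PSMD12 (chr17:67366628-67366827, minus strand): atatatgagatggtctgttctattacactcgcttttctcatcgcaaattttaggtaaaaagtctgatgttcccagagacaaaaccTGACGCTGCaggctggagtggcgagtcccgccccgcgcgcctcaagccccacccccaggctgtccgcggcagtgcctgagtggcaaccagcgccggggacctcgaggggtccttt

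No proteasome subunit transcript passed the threshold between the groups. By the edgeR quasi-likelihood test at an adjusted p under 0.05, 0 of 30 were called, where 0.220% of all genes tested were (32 of 14578; 0.0823% higher and 0.137% lower). At an unadjusted p under 0.05 the count was also 0 of 30, against 16.1% of all genes, and it was 0 by DESeq2 (4.42% of all genes called, 1.79% higher and 2.63% lower) and by limma-voom (0.233%, with 0.0892% higher and 0.144% lower). The log2 differences, siRBM47 over control, were positive for 15 subunits and negative for 15, from -0.50 to 0.40, with a median of 0.0001 against -0.01 over all genes tested. Adjusted p ran from 0.337 to 0.969 (edgeR). Each of the 30 intervals (95%) held 0, and 29 of them lay within a 2-fold difference in either direction. The exception was PSMA6, the gene with the fewest counts, with an interval of -1.21 to 0.20. Libraries of bulk RNA do not tell less RNA per cell from a changed mix of cells.

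**Figure D1:**
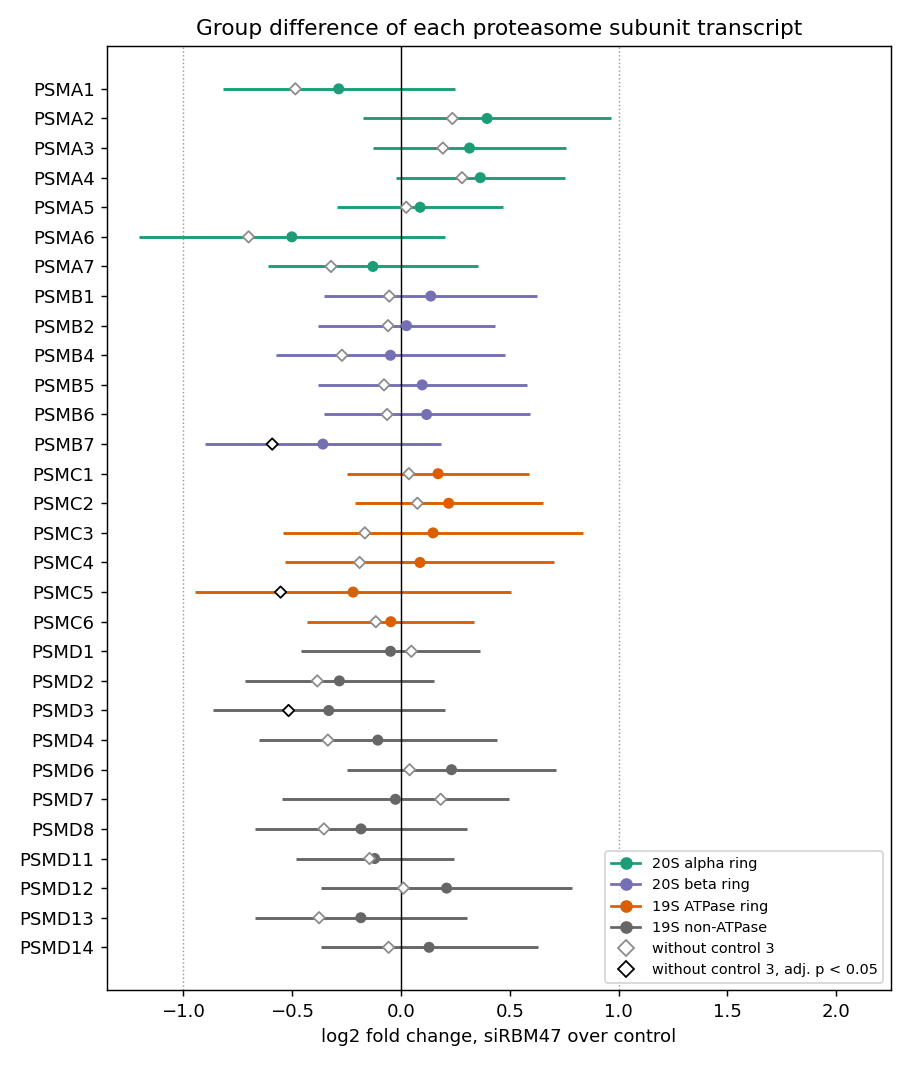
Log2 fold change of the 30 subunit transcripts, siRBM47 over control (filled circles, edgeR, 6 libraries), with 95% intervals as lines, coloured by ring or subcomplex; open diamonds are the values without control replicate 3, black where their adjusted p was under 0.05. All 30 intervals cross 0, 29 lie between the dotted lines at -1 and 1, and the 3 black diamonds are PSMB7, PSMC5 and PSMD3.

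Among the alpha ring genes, which form the gate of the barrel, 4 of 7 had a positive log2 difference and the median was 0.09. PSMA4 (ENSG00000041357, GRCh38 chromosome 15, 78540405 to 78552419, plus strand) was at 195, 188 and 159 CPM in the controls, against 235, 218 and 245 in siRBM47. Every siRBM47 library lay above every control library, with a log2 difference of 0.36 (SE 0.17, 95% interval -0.02 to 0.75, adjusted p = 0.337, edgeR), the smallest adjusted p of the 30. PSMA3 (ENSG00000100567, chromosome 14, 58244831 to 58272012, plus strand) was at 178, 172 and 132 CPM in the controls, against 235, 182 and 184 in siRBM47. Its groups did not overlap either, though siRBM47 replicates 2 and 3 lay close above control replicate 1 (log2 difference 0.32, SE 0.20). Non-overlap of the groups was seen in 3 of the 30 genes (10%), 2 of them higher in siRBM47, and in 22.6% of all genes tested (11.6% higher and 11.0% lower).

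PSMA7 (ENSG00000101182, chromosome 20, 62136735 to 62143440, minus strand), the gene with the highest FPKM of the 30, was at 444, 430 and 273 CPM in the controls, against 338, 346 and 365 in siRBM47. The siRBM47 values lay between control replicate 3 and the other two controls, a pattern that recurred in much of the complex. PSMA5 was at 190, 196 and 168 CPM in the controls, against 190, 185 and 215 in siRBM47, and its log2 difference of 0.09 (SE 0.17) came with groups that overlapped. PSMA1, with 47.3, 43.5 and 27.8 CPM in the controls, against 38.2, 29.9 and 29.2 in siRBM47, had a log2 difference of -0.29 (SE 0.24). PSMA2 and PSMA6 were counted far less than the other alpha subunits. PSMA2 had 121, 158 and 112 counts in control and 211, 149 and 186 in siRBM47 (log2 difference 0.40, SE 0.25, the highest of the 30), and its groups overlapped. PSMA6 had 64, 83 and 53 counts in control and 52, 47 and 51 in siRBM47 (log2 difference -0.50, SE 0.31, the lowest of the 30), with control replicate 3 level with the siRBM47 libraries.

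The beta ring genes had log2 differences between -0.36 and 0.14, and control replicate 3 was the lowest of the 6 libraries for 5 of the 6 analysed. The gene for the trypsin-like site, PSMB7 (ENSG00000136930, chromosome 9, 124353466 to 124415444, minus strand), was at 498, 435 and 258 CPM in the controls, against 302, 321 and 305 in siRBM47. The siRBM47 libraries sat close together, above control replicate 3 and below the other two controls (log2 difference -0.36, SE 0.24, adjusted p = 0.504, edgeR). The gene for the chymotrypsin-like site, PSMB5, was at 192, 196 and 127 CPM in the controls, against 162, 184 and 206 in siRBM47 (log2 difference 0.10, SE 0.21). The gene for the caspase-like site, PSMB6, was at 171, 171 and 110 CPM in the controls, against 150, 166 and 174 in siRBM47 (log2 difference 0.12, SE 0.21). For both, control replicate 3 was the lowest library and the other 5 libraries overlapped. PSMB4, which carries no proteolytic site, was at 499, 452 and 271 CPM in the controls, against 380, 409 and 394 in siRBM47, again with siRBM47 between the controls. PSMB1 and PSMB2, also without a proteolytic site, had log2 differences of 0.14 (SE 0.22) and 0.03 (SE 0.18).

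**Figure D2:**
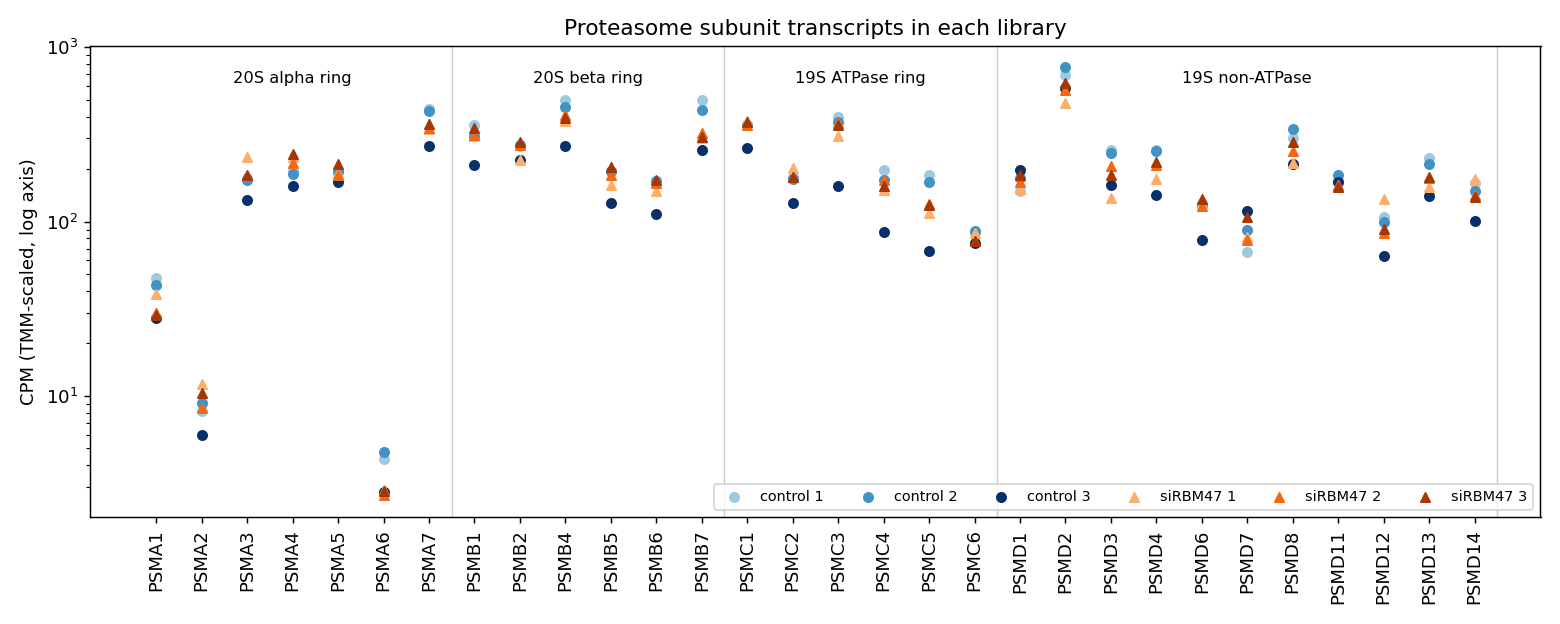
CPM (TMM-scaled, log axis) of the 30 subunit transcripts in each library, circles for control and triangles for siRBM47, one shade per replicate. Control replicate 3, the darkest circle, is the lowest point for 23 genes and the highest for PSMD1 and PSMD7, and PSMA1, PSMA2 and PSMA6 lie below all other genes of the complex in every library.

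The ATPase ring genes had log2 differences from -0.22 to 0.22, 4 of 6 of them positive, and control replicate 3 was the lowest library for all 6. PSMC5 (ENSG00000087191, chromosome 17, 63827152 to 63832026, plus strand) was at 185, 170 and 67.7 CPM in the controls, against 112, 126 and 125 in siRBM47. The 2 higher controls lay above every siRBM47 library and control replicate 3 lay below them all, so the log2 difference of -0.22 had a wide error (SE 0.33, 95% interval -0.95 to 0.51). PSMC3 was at 399, 374 and 160 CPM in the controls, against 308, 367 and 359 in siRBM47 (log2 difference 0.15, SE 0.31). PSMC4 was at 197, 172 and 87.7 in the controls, against 152, 173 and 160 in siRBM47 (0.09, SE 0.28). PSMC6 varied least in this ring, at 86.4, 87.9 and 74.9 CPM in the controls, against 85.8, 77.8 and 77.6 in siRBM47 (log2 difference -0.05, SE 0.17). PSMC1 and PSMC2 had log2 differences of 0.17 (SE 0.19) and 0.22 (SE 0.19). PSMC5 and PSMC1 share 27.2% and 82.1% of their main transcript with opposite-strand exons of FTSJ3 and NRDE2, and the library kit keeps no strand information, so their counts are uncertain. PSMC1 also has 13 annotated pseudogene copies.

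Of the 11 non-ATPase genes of the 19S particle 8 had a negative log2 difference, with a median of -0.11. PSMD3 (ENSG00000108344, chromosome 17, 39980797 to 39997960, plus strand), a scaffold of the lid, was at 258, 247 and 161 CPM in the controls, against 137, 208 and 185 in siRBM47. The groups overlapped through control replicate 3 (log2 difference -0.33, SE 0.24, 95% interval -0.87 to 0.20, adjusted p = 0.53, edgeR). PSMD12, another lid subunit, was at 107, 99.3 and 63.3 CPM in the controls, against 135, 86.1 and 90.2 in siRBM47 (log2 difference 0.21, SE 0.26). PSMD2, a large scaffold of the base and the subunit with the highest CPM, was at 691, 768 and 581 CPM in the controls, against 477, 571 and 627 in siRBM47. Its log2 difference was -0.28 (SE 0.19), with overlapping groups. The ubiquitin receptor gene PSMD4 was at 256, 255 and 143 CPM in the controls, against 176, 212 and 220 in siRBM47 (log2 difference -0.11, SE 0.24). The gene for the deubiquitinase PSMD14 was at 166, 150 and 101 CPM in the controls, against 175, 143 and 138 in siRBM47 (0.13, SE 0.22). In both, control replicate 3 was again the lowest library.

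PSMD11, a lid subunit, was the third gene with groups that did not overlap and varied little in either group. It was at 171, 184 and 169 CPM in the controls, against 161, 163 and 157 in siRBM47 (log2 difference -0.12, SE 0.16, 95% interval -0.48 to 0.24). PSMD1, a scaffold of the base, and PSMD7, the partner of PSMD14, differed from the other subunits in being highest in control replicate 3. PSMD7 was at 66.7, 89.5 and 115 CPM in the controls, against 81.6, 78.9 and 106 in siRBM47, and 50.4% of its main transcript is overlapped on the opposite strand. PSMD1 was at 149, 178 and 197 CPM in the controls, against 153, 169 and 186 in siRBM47. PSMD6, PSMD8 and PSMD13 had log2 differences of 0.23, -0.18 and -0.18 (SE 0.22 each). Subunits other than PSMA2, PSMA3, PSMA4, PSMA6, PSMA7, PSMB4, PSMB7 and PSMD3 were chosen for description by library after their values were seen.

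The widest difference within the complex was between control libraries rather than between groups. Summed over the 30 genes the level was 6991, 6873 and 4716 CPM in the controls, against 5814, 6107 and 6345 in siRBM47, so control replicate 3 was lowest and the other controls were highest. The control mean of 6193 ± 1281 and the siRBM47 mean of 6089 ± 266 (SD, n = 3 each) differed by less than either spread. Control replicate 3 was the lowest of the 6 libraries for 23 of the 30 genes, against 25.2% of all genes tested. It was lowest for 6 of 7 alpha, 5 of 6 beta, 6 of 6 ATPase and 6 of 11 non-ATPase genes. Set against the mean of the other two controls, control replicate 3 had log2 differences with a median of -0.62 over the 30 genes, against 0.01 over all genes tested. These ran from -1.38 for PSMC5 to 0.56 for PSMD7, with medians of -0.50 in the alpha ring, -0.65 in the beta ring, -0.77 in the ATPase ring and -0.64 in the non-ATPase genes. RBM47 itself was highest in this library. Whether these levels move for a technical or a biological reason was not tested.

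**Figure D3:**
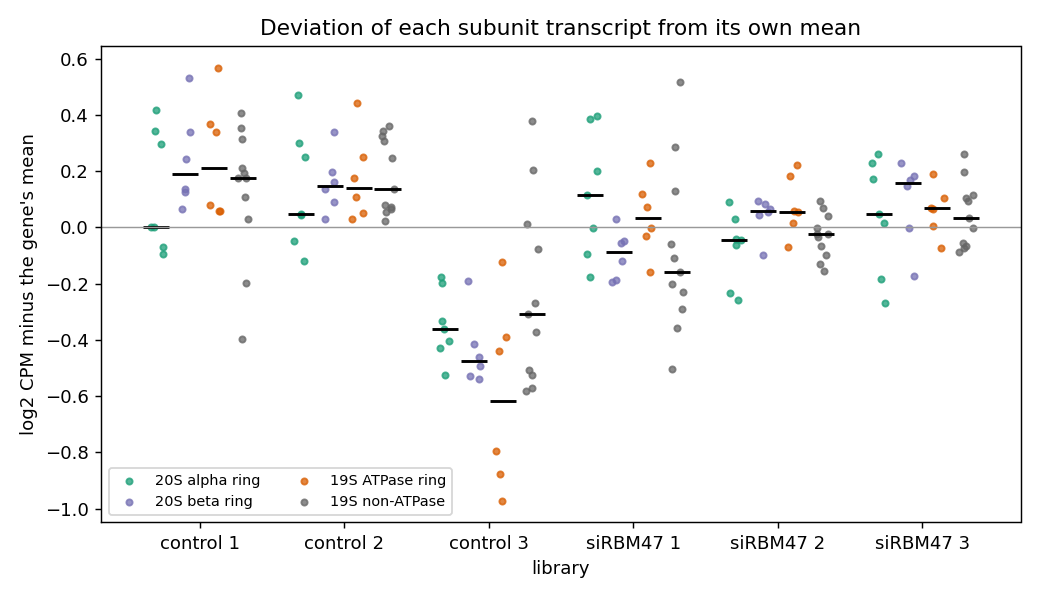
Log2 CPM of each subunit transcript minus its mean over the 6 libraries (0.5 added to CPM), by library, coloured by ring or subcomplex; black bars are medians. In control replicate 3 the medians lie at -0.36 for the alpha ring, -0.48 for the beta ring, -0.62 for the ATPase ring and -0.31 for the non-ATPase genes, below those of every other library.

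Control replicate 3 was the lowest library for 23 of the 30 genes, so leaving it out raises the control mean for these. The log2 differences of most subunits were lower in that fit for this reason. The log2 difference was then negative for 20 of the 30, with a median of -0.10 against 0.02 over all genes, and 9 genes had another sign than with all libraries. In that fit 3 genes were lower by edgeR at an adjusted p under 0.05 and 0 higher, or 10% of the 30, where 11.3% of all genes were lower, 10.1% higher and 21.4% called in either direction. They were PSMB7 at -0.59 (SE 0.14, adjusted p = 0.00835), PSMC5 at -0.55 (SE 0.14, adjusted p = 0.0148) and PSMD3 at -0.52 (SE 0.17, adjusted p = 0.0454, all edgeR). PSMC3 and PSMC4 then stood at -0.17 (SE 0.14) and -0.19 (SE 0.14). The targeted gene RBM47 had a positive log2 difference in that fit, 0.76 (SE 0.36, adjusted p = 0.1515, edgeR). Leaving out any other single library gave 0 of 30 calls by edgeR.

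Levels per length were compared on the FPKM scale (fragments per kilobase of gene, scaled to library size, as deposited). Over the 6 libraries the mean was highest for PSMA7 at 207 ± 36.2 FPKM, then PSMB4 at 184 ± 35.7, PSMB7 at 163 ± 42.6, PSMC3 at 145 ± 38.8 and PSMB1 at 136 ± 23.4 (SD over 6 libraries), neighbours that did not differ beyond their spread. The median was 123 FPKM in the beta ring, 33.0 in the alpha ring, 57.0 in the ATPase ring and 33.0 in the non-ATPase genes, against 4.08 over all genes tested. The lowest levels were PSMA6 at 0.519 ± 0.141 FPKM, PSMA2 at 1.67 ± 0.373 and PSMA1 at 9.61 ± 2.22, followed by PSMC6 at 10.8 ± 0.774. PSMA6 and PSMA2 lay apart from each other and from all others in every library, while PSMA1 overlapped PSMC6.

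The 3 genes with the lowest FPKM are also the 3 whose main annotated transcript shares bases with another gene on the same strand. In GENCODE release 29 the share is 81% for PSMA6 (ENSG00000100902, chromosome 14, 35278633 to 35317493), with AL121594.1, 53.2% for PSMA1 (ENSG00000129084, chromosome 11, 14504874 to 14643635), with AC018523.2, and 52.5% for PSMA2 (ENSG00000106588, chromosome 7, 42916857 to 42932223), with AC010132.3. These partners, annotated as protein-coding genes, held 19, 0 and 0 counts over all 6 libraries. It is 0% for the other 27 genes. How reads that fall in 2 genes were counted is not given in the sources used here and its part in these levels was not tested, so the levels of these 3 genes are uncertain. PSMA2 and PSMA6 also have 3 and 4 annotated pseudogenes.

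The other 27 genes spanned a 19.1-fold range, from PSMC6 to PSMA7, with a median of 57.5 FPKM. Their order depended on the length used. The deposited FPKM imply for most genes a length close to the union of all annotated exons, which for PSMC6 is 7482 bases against 2188 for its main transcript. Per kilobase of main transcript, an alternative added after seeing the data, the range was 18.9-fold, from PSMD12 at 21.98 to PSMB4 at 416 CPM per kilobase, and PSMC6 was at 37.4. Among all 30 genes PSMD6 moved from rank 5 by FPKM, counted from the lowest, to rank 15, at 83.1 CPM per kilobase. PSMA7, PSMB4, PSMB7 and PSMB1 were the top 4 on this scale, and PSMA6, PSMA2 and PSMA1 were among the lowest 4 (3.29, 6.03 and 23.9).

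**Figure D4:**
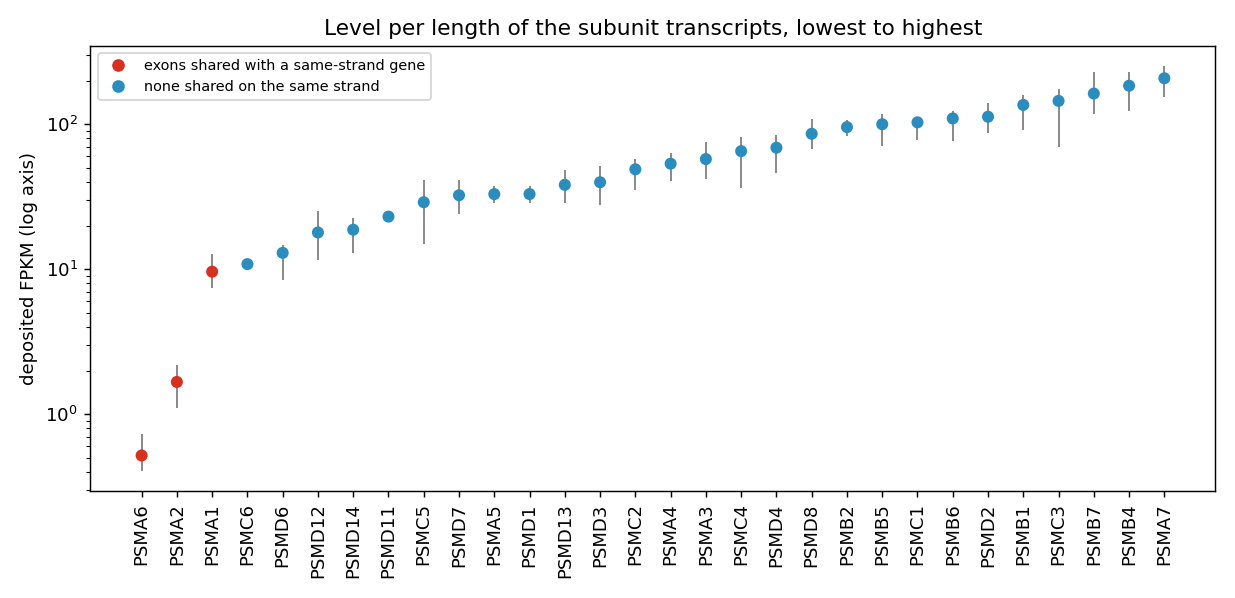
Deposited FPKM (log axis) of the 30 subunit transcripts from lowest to highest; points are means over 6 libraries, lines the lowest to highest library, red where exons of the main transcript are shared with a gene on the same strand. The 3 red points, PSMA6, PSMA2 and PSMA1, are the 3 lowest.

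The remaining 19S subunits and the alternative core subunits likewise gave no call. ADRM1, a ubiquitin receptor, was at 206, 220 and 105 CPM in the controls, against 153, 205 and 191 in siRBM47 (log2 difference 0.05, SE 0.28). SEM1, a small lid subunit, was at 154, 108 and 61.9 in the controls, against 88.4, 98.4 and 86.1 in siRBM47 (-0.25, SE 0.29), and without control replicate 3 it was lower at -0.53 (SE 0.17, adjusted p = 0.0415, edgeR). Both were lowest in control replicate 3. Interferon-induced immunoproteasome subunits replace the standard ones at the proteolytic sites: PSMB8 replaces PSMB5, PSMB9 replaces PSMB6 and PSMB10 replaces PSMB7. On the FPKM scale PSMB8 was at 42.8 ± 4.95% of PSMB5 in control and 45.1 ± 6.86% in siRBM47, PSMB9 at 14.8 ± 3.75% and 14.3 ± 0.654% of PSMB6, and PSMB10 at 2.24 ± 0.117% and 2.61 ± 0.531% of PSMB7 (SD, n = 3). All 3 ratios differed between the groups by less than the larger spread within a group. Their log2 differences were 0.18 (SE 0.19), 0.12 (SE 0.18) and -0.12 (SE 0.30), and 45.3% of the main PSMB10 transcript overlaps other exons. The testis subunit PSMA8 had no count in any library, which allows up to 3 counts in each, and the thymus subunit PSMB11 had 2 counts in siRBM47 replicate 3 and none elsewhere.

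Activators, which open the gate of the core, and the inhibitor PSMF1 had positive log2 differences in 5 of 5 genes, with a median of 0.16, and 0 of 5 passed by edgeR, DESeq2 or limma-voom, nor at an unadjusted p under 0.05. PSME2, a subunit of the interferon-induced activator, was at 246, 196 and 171 CPM in the controls, against 263, 277 and 282 in siRBM47. The groups did not overlap, and the log2 difference was 0.42 (SE 0.19, adjusted p = 0.312, edgeR). Its partner PSME1 was at 157, 148 and 167 CPM in the controls, against 173, 177 and 176 in siRBM47, also without overlap (0.16, SE 0.16). Non-overlap with siRBM47 higher was seen in these 2 of the 5 genes and in 11.6% of all genes tested. PSME3, the nuclear activator, had a log2 difference of 0.21 (SE 0.18) with overlapping groups.

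Among 9 assembly factors 0 passed by edgeR and 1, PSMD5, passed by DESeq2, where 0.220% and 4.42% of all genes tested passed. PSMD5, a chaperone that holds ATPase subunits during assembly of the 19S base, was at 49.2, 45.9 and 42.8 CPM in the controls, against 78.9, 69.2 and 73.9 in siRBM47. Each siRBM47 library was well above each control (log2 difference 0.69, SE 0.17, 95% interval 0.30 to 1.07, adjusted p = 0.114 by edgeR and 0.0169 by DESeq2). Over the edgeR and limma-voom alternatives its adjusted p ran from 0.0118, without control replicate 3, to 0.396. PSMG1, a chaperone of alpha ring assembly, was at 60.2, 53.7 and 30.4 CPM in the controls, against 79.6, 64.2 and 57.4 in siRBM47 (0.48, SE 0.27). PAAF1, which binds free ATPase subunits, was at 16.7, 18.2 and 15.6 in the controls, against 14.5, 13.5 and 13.0 in siRBM47, without overlap (-0.30, SE 0.20). Non-overlap was seen in 1 of the 9 genes in each direction, and in 11.6% of all genes tested higher and 11.0% lower. Control replicate 3 was lowest for 7 of the 9, as for most core subunits.

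Genes that control proteasome transcription had a median log2 difference of -0.40, with 7 of 10 negative. By edgeR 0 of 10 passed, 4 had an unadjusted p under 0.05, DESeq2 called 2 and limma-voom 0. Over all genes tested the shares were 0.220%, 16.1%, 4.42% and 0.233%. NFE2L1, the activator of subunit genes, was at 311, 365 and 493 CPM in the controls, against 208, 261 and 258 in siRBM47, without overlap. Its log2 difference was -0.69 (SE 0.22, 95% interval -1.17 to -0.20, adjusted p = 0.175 by edgeR and 0.0751 by DESeq2). The small Maf proteins are its DNA-binding partners. MAFG was at 58.4, 59.8 and 41.6 CPM in the controls, against 24.2, 28.5 and 25.8 in siRBM47 (-1.03, SE 0.20, adjusted p = 0.0739 by edgeR and 0.00138 by DESeq2). MAFF was at 92.8, 92.8 and 76.8 in the controls, against 60.7, 56.2 and 50 in siRBM47 (-0.65, SE 0.18, adjusted p = 0.139 by edgeR and 0.0407 by DESeq2). In all 3 each siRBM47 library lay below each control, and without control replicate 3 all 3 were lower (adjusted p = 0.0374, 0.000355 and 0.00483, edgeR). Of all genes tested, 11.0% had such non-overlap, and 11.3% were called lower without control replicate 3. In that fit 4 of the 10 genes were called lower, the other being SYVN1 (-0.95, SE 0.20, adjusted p = 0.00554, edgeR). With all libraries the SYVN1 groups overlapped (-0.68, SE 0.30, adjusted p = 0.3005, edgeR). SYVN1 was named after its values were seen. MAFK, another small Maf, had overlapping groups (-0.39, SE 0.28, adjusted p = 0.529, edgeR) and was not called without control replicate 3 (adjusted p = 0.155, edgeR). MAFG was also lower with no filter on low counts (adjusted p = 0.00282, edgeR), where 804 of 27110 genes were called in either direction. Over the edgeR and limma-voom alternatives adjusted p ran from 0.0374 to 0.454 for NFE2L1, from 0.000355 to 0.325 for MAFG and from 0.00483 to 0.464 for MAFF. Control replicate 3 was the highest library for 3 of the 10 genes, NFE2L1, NFE2L2 and BACH1, and for 25.4% of all genes tested. Most subunits were lowest in it, and a link between the 2 was not tested. The 6 subunit genes with the antioxidant response element had log2 differences of 0.36 (PSMA4), 0.21 (PSMD12), 0.09 (PSMC4), -0.05 (PSMD1), -0.22 (PSMC5) and -0.33 (PSMD3), and none passed.

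Shuttle factors and deubiquitinases that deliver and trim substrates had a median log2 difference of 0.12. Of these 12 genes 0 passed by edgeR, by DESeq2 or by limma-voom, and 1 had an unadjusted p under 0.05. Among all genes tested 0.220%, 4.42% and 0.233% passed by these tools, and 16.1% had such an unadjusted p. UBQLN4, a ubiquilin shuttle, and ZFAND2A, a stress-induced zinc finger protein that binds the proteasome, had log2 differences of -0.41 (SE 0.22) and 0.33 (SE 0.25). Of 9 genes for ubiquitin, its activating enzymes and the p97 unfoldase system, 0 passed by any of these tools or at an unadjusted p under 0.05. The activating enzyme UBA1 was at 351, 366 and 382 CPM in the controls, against 258, 338 and 332 in siRBM47 (-0.24, SE 0.18), and the unfoldase VCP at 479, 510 and 488 against 374, 454 and 454 (-0.21, SE 0.17). Both had groups that did not overlap, as 2 of the 9 genes, where 22.6% of all genes tested had such groups.

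**Figure D5:**
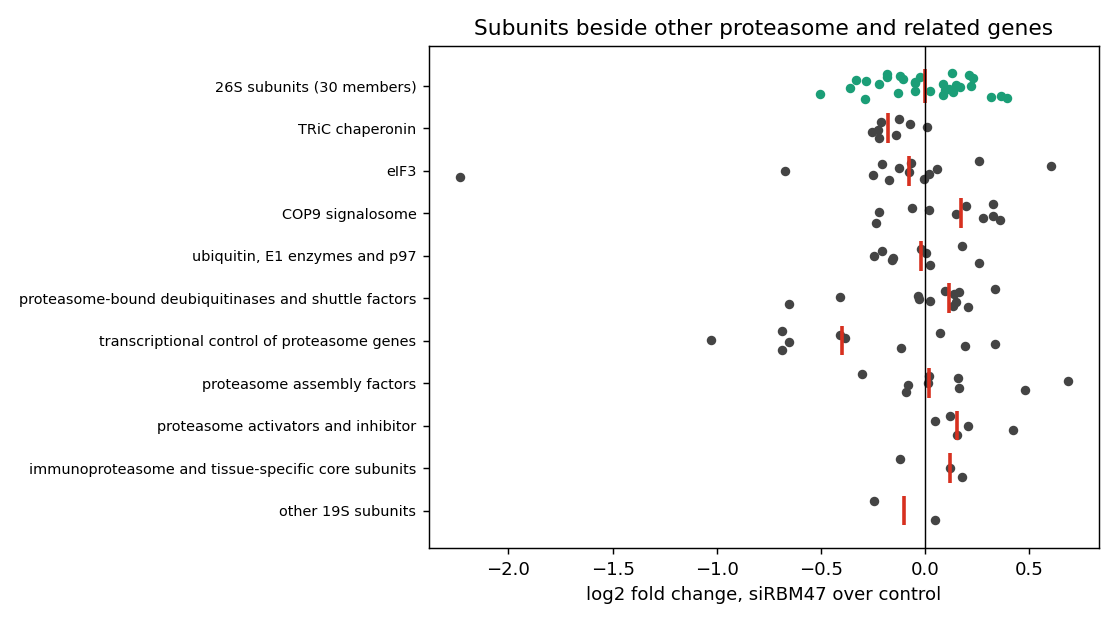
Log2 fold change, siRBM47 over control, of the 30 subunit genes (top row, green) and of the tested genes of related lists (grey); red bars are medians. The subunits lie between -0.50 and 0.40 with a median of 0.0001, and the lowest list median is -0.40, for genes of transcriptional control.

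Other large complexes served as a comparison. The COP9 signalosome and the translation factor eIF3 share the architecture of the 19S lid, and the TRiC chaperonin folds cytosolic proteins. Each had 0 genes past the threshold by edgeR, of 10, 13 and 8 tested (0, 3 and 0 at an unadjusted p under 0.05, and 0, 1 and 0 by DESeq2). Over all genes tested the shares were 0.220%, 16.1% and 4.42%. The median log2 differences were 0.17, -0.08 and -0.18, beside 0.0001 for the proteasome subunits. Control replicate 3 was the lowest library for 5 of 10 signalosome, 4 of 13 eIF3 and 7 of 8 TRiC genes, and its median log2 difference from the other two controls was -0.30, -0.27 and -0.56, beside -0.62 for the proteasome subunits. Differences between these complexes were not tested.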

How the data were processed

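Counts per gene and FPKM were taken as deposited by the authors, 1 library per file. Per the submitters' processing notes, the tools were HISAT2 2.0.5 (alignment) and featureCounts 1.5.0-p3 (counting), with build hg38. Annotation release, strand setting and filters: not given in the sources used here. Deposited FPKM values, made by the authors, served for levels per length and for no test. The members and gene lists were chosen with earlier results of these data known.

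Symbols came from a table of identifiers (5909 of 57905 had none), and positions and shared exon bases from GENCODE release 29 (GRCh38). The main transcript is the longest of the best APPRIS class. Genes kept by filterByExpr (minimum count 10) were tested on the counts with edgeR 4.0.16 (quasi-likelihood, TMM factors, no block; R 4.3.3), with Benjamini-Hochberg adjustment over all 14578 genes and a threshold of 0.05. Standard errors were obtained by dividing each absolute log2 difference by the root of its F statistic. Intervals cover 95%. Alternatives were RLE and upper quartile factors, DESeq2 1.42.0, limma-voom 3.58.1, no filter, minimum count 50, the replicate number as a block, and omission of single libraries (same genes tested). The edgeR step was tested on simulated data. Named genes were those with the 3 highest and 3 lowest log2 differences, the 2 highest and 2 lowest FPKM, and up to 3 per related list with the smallest p; others are marked in the text, and some genes the rule selects are not reported here. No replicate pair within a group agreed within counting noise (chi-square per degree of freedom 10.74 to 144.83), so no library was dropped as a copy of another. These values do not tell separate cultures from separate preparations of the same RNA.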

Additional observations from a re-analysis of the deposited data

How the results depend on the processing

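With RLE or upper quartile factors, DESeq2, limma-voom, no filter, a minimum count of 50 or the replicate block, 0 of the 30 subunits passed and none changed sign. The median log2 difference of the subunits was then 0.003 to 0.012. The count over all genes was 644 of 14578 with DESeq2, against 32 of 14578. Without the filter it was 804, of a larger set of 27110 genes. Leaving out each library in turn gave 0 to 3117 genes over all and 0 to 3 subunits. The 3117 and the 3 both came without control replicate 3, and the cause was not tested. Omitting control replicate 1 gave 19 genes, omitting control replicate 2 gave 12, and omitting any one siRBM47 library gave 0, where 1789, 1816 and 1445 genes had an unadjusted p under 0.05. The median of the subunits ran from -0.097 to 0.094 in these fits. A change of sign was counted as a reversal where the value passed the threshold or moved by more than its standard error with all libraries. Without 1 library this occurred for PSMC3 (-0.166 to 0.372), PSMC4 (-0.19 to 0.321), both negative without control replicate 3, and SEM1 (-0.525 to 0.106), positive without control replicate 1.

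Deviations from the group mean correlated at -0.069, 0.174 and 0.103 between same-numbered libraries, and at -0.247 to 0.237 between the others. With 3 libraries per group these values cannot settle whether same-numbered libraries shared a culture or day, and the labels do not say so. With the replicate block 39 genes and 0 subunits passed, and the subunit median was 0.011. Counts of 47 to 83 for PSMA6 limit its precision.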
